A study of Homo sapiens with 18 samples.

Results

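Mitochondrial ribosomal proteins (MRPs) form the protein part of the ribosome that works inside mitochondria, and their genes were followed here in 2 human colon cancer cell lines, HT-29 and HCT116, after exposure to Erastin (ER). A gene was taken as a member where its transcript was annotated to it alone and its symbol was MRPL or MRPS followed by digits, with an optional final A, B or C, pseudogenes being left out. This gave 75 genes of the 33616 that the annotation names, 50 of the large ribosomal subunit and 25 of the small subunit. MRPS18A and MRPS30 were counted in the large subunit, where structures of the ribosome place them in spite of their names. The rule uses the symbols alone and no filter on signal, and it was set with earlier results of these data known.

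The RNA of 6 groups was hybridised to 18 Affymetrix arrays, with 3 arrays a group. The groups were HT-29 and HCT116 cells that were untreated, treated with 2.5 µM ER for 4 h, or treated with 2.5 µM ER for 24 h. ER is a small molecule that blocks cystine uptake and triggers ferroptosis, an iron-dependent form of cell death. Each cell line has 1 untreated group, which serves both times, and neither a vehicle nor a time in culture is stated for it, so a difference from untreated cells cannot be told apart from either. The methods describe 3 independent experiments with exponentially growing cells of established lines. By that description the replicates are separate cultures of the same line, which was not tested here.

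The mitochondrial ribosome translates the few messenger RNAs of the mitochondrial genome, all of which encode subunits of the oxidative phosphorylation complexes. Its ribosomal RNAs come from the mitochondrial genome, whereas all of its proteins are encoded in the nucleus, made in the cytosol and imported. Many of them have a counterpart in the bacterial ribosome, and the others are specific to mitochondria. Of the 75 genes, 45 belong to the first kind (30 large, 15 small subunit) and 30 to the second (20 large, 10 small subunit). MRPL53 and MRPS6 share their transcripts with CCDC142 and SLC5A3 and were therefore not members.

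The deposited signals are on a log2 scale and reached 19.92, whereas a 16-bit scanner can give no more than 16, so the scale is in doubt and every log2 change given here shares that doubt. HT-29 replicate 1 stood apart from the other HT-29 arrays at all times: the intestinal marker LYZ had a mean signal of 17.12 there, against 10.34 and 11.24 in replicates 2 and 3 and 5.84 in HCT116, and KRT20 had 14.15, against 8.68, 9.02 and 7.30. The intestinal marker CDX2 went the other way, with 8.10 in HT-29 replicate 1, against 8.90, 9.30 and 9.04. All 10 epithelial markers were measured, with array medians of 9.56 to 14.07 in HT-29 and 7.70 to 8.55 in HCT116. The HT-29 range includes replicate 1, whose means were above those of replicates 2 and 3 for all these markers but CDX2. On some markers replicates 2 and 3 lay near HCT116: VIL1 had 5.74 and 6.22, against 5.59, and CDH1 11.20 and 11.66, against 11.20. As with LYZ and KRT20, CEACAM5 lay above it (6.41 and 6.33, against 4.76), and so did CEACAM6 (8.22 and 8.57, against 6.86). The 4 leukocyte markers measured had array medians of 6.33 to 7.02 and the 5 fibroblast and endothelial markers 6.74 to 7.34 over both lines. The table gives no limit of detection, so no marker can be called absent. A signal from a bulk sample cannot tell less RNA per cell from fewer cells that hold it. Counts and medians with HT-29 replicates 2 and 3 alone stand beside the main ones, and those of gene lists, motifs and both lines were added after seeing the data.

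Because most members were lower at 24 h, the DNA before their transcription starts was read from RefSeq (GRCh38.p14), where 67 of the 75 genes had a promoter window of 250 bases before to 50 bases after the start. Both strands were searched for 4 short motifs: CCGGAAG, the core site of ETS family factors such as GABP; AAGATGGC, that of YY1; GCGCA and GCGC set 1 base apart, that of nuclear respiratory factor 1 (NRF1); and CACGTG, the E-box bound by MYC and related factors. The motifs do not overlap each other in the windows printed here. The 250 bases before the start are shown for MRPL3, the 1 gene called in HT-29 cells at 24 h against untreated cells; for MRPL12, which had the smallest p-value of the 75 genes in HCT116 cells between 24 h and 4 h; for MRPL36, which was lower at 24 h than at 4 h without overlap in both lines; and for MRPL58, which had the smallest p-value in HCT116 cells at 24 h against untreated cells. Capitals mark the motifs, on either strand.
MRPL3: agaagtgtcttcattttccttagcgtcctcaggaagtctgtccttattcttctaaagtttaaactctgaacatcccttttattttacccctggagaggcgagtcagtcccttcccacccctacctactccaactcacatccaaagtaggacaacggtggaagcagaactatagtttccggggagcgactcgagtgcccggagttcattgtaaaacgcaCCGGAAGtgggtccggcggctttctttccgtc
MRPL12: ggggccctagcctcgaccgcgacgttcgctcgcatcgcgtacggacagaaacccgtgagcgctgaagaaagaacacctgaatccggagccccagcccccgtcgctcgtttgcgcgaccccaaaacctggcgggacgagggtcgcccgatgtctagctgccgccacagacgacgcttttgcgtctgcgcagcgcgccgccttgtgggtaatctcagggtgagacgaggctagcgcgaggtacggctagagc
MRPL36: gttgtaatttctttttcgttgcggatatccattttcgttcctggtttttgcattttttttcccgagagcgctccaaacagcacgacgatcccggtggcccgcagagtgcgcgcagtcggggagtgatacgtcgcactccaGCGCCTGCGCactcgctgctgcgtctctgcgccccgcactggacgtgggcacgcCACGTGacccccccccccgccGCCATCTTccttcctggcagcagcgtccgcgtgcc
MRPL58: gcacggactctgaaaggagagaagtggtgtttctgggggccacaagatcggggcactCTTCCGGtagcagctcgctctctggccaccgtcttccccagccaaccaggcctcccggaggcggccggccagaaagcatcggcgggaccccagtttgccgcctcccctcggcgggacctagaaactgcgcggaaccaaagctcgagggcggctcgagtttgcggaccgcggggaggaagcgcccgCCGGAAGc
These windows lie at chr3:131502972-131503221 on the minus strand (MRPL3), chr17:81703117-81703366 on the plus strand (MRPL12), chr5:1799838-1800087 on the minus strand (MRPL36) and chr17:75012420-75012669 on the plus strand (MRPL58), and are printed 5′ to 3′ in the direction of the gene. Counted from the start, the ETS motif of MRPL3 begins at -32. MRPL36 holds an NRF1 motif at -110, an E-box at -56 and a YY1 motif at -35, and MRPL58 holds ETS motifs at -193 and -8. None of the 4 motifs was found in the window of MRPL12.

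The ETS motif was present in 28 of the 67 members' windows (41.8%), against 10.7% of all 27305 promoters, 14.2% of those of protein-coding genes and 33.3% of those of 45 cytosolic ribosomal protein genes. The YY1 motif was present in 20 members (29.9%), against 3.03%, 3.91% and 8.89%. In most members that had them these motifs began within 50 bases of the start, in 23 for ETS and 16 for YY1. NRF1 motifs were present in 8 members (11.9%), against 6.28%, 8.58% and 11.1%, and E-boxes in 6 (8.96%), against 7.43%, 8.88% and 4.44%. The medians that follow are of the change at 24 h against untreated cells. The difference in change between members with and without a motif was not tested. The median log2 change was -0.30 with and -0.39 without an ETS motif in HT-29 cells and -0.20 and -0.22 in HCT116 cells, and with and without a YY1 motif it was -0.30 and -0.36 in HT-29 cells and -0.18 and -0.21 in HCT116 cells. With and without an NRF1 motif it was -0.22 and -0.34 in HT-29 cells and -0.08 and -0.22 in HCT116 cells, and with and without an E-box it was -0.42 and -0.33 in HT-29 cells and -0.25 and -0.20 in HCT116 cells. With HT-29 replicates 2 and 3 alone, members with a motif had medians of -0.07 (ETS), -0.13 (YY1), 0.04 (NRF1) and -0.20 (E-box), and those without it of -0.18, -0.19, -0.19 and -0.17. A match is a description of the letters in the window and was not tested as a binding site.

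To compare arrays, each gene's signal was set against its mean over the 9 arrays of its cell line, and the median of these deviations over the 75 genes was taken for each array. In HT-29 cells the medians were 0.08, 0.04 and 0.13 on the untreated arrays, -0.03, -0.12 and 0.56 at 4 h, and -0.45, -0.06 and -0.10 at 24 h. In HCT116 cells they were -0.10, 0.08 and 0.19 on the untreated arrays, 0.14, 0.21 and 0.11 at 4 h, and -0.49, -0.11 and 0.06 at 24 h. The 24 h arrays therefore lay below all untreated arrays in HT-29 cells, overlapped the untreated arrays in HCT116 cells, and lay below all 4 h arrays in HCT116 cells. In both lines replicate 1 at 24 h was the lowest array, and in HT-29 cells replicate 3 at 4 h was far above the other arrays.
That HT-29 array was also the highest for other genes: the median deviation there was 0.82 for 50 cytosolic ribosomal protein genes and 0.77 for 32 genes of complex I, the first enzyme of the respiratory chain. On the lowest arrays the other genes did not lie equally low. At 24 h HT-29 replicate 1 had -0.23 for cytosolic ribosomal proteins and -0.31 for complex I, and HCT116 replicate 1 had 0.05 and -0.18. The large and the small subunit lay close to each other on every array, with medians of -0.52 and -0.42 on HT-29 replicate 1 and -0.43 and -0.54 on HCT116 replicate 1 at 24 h.

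**Figure D1:**
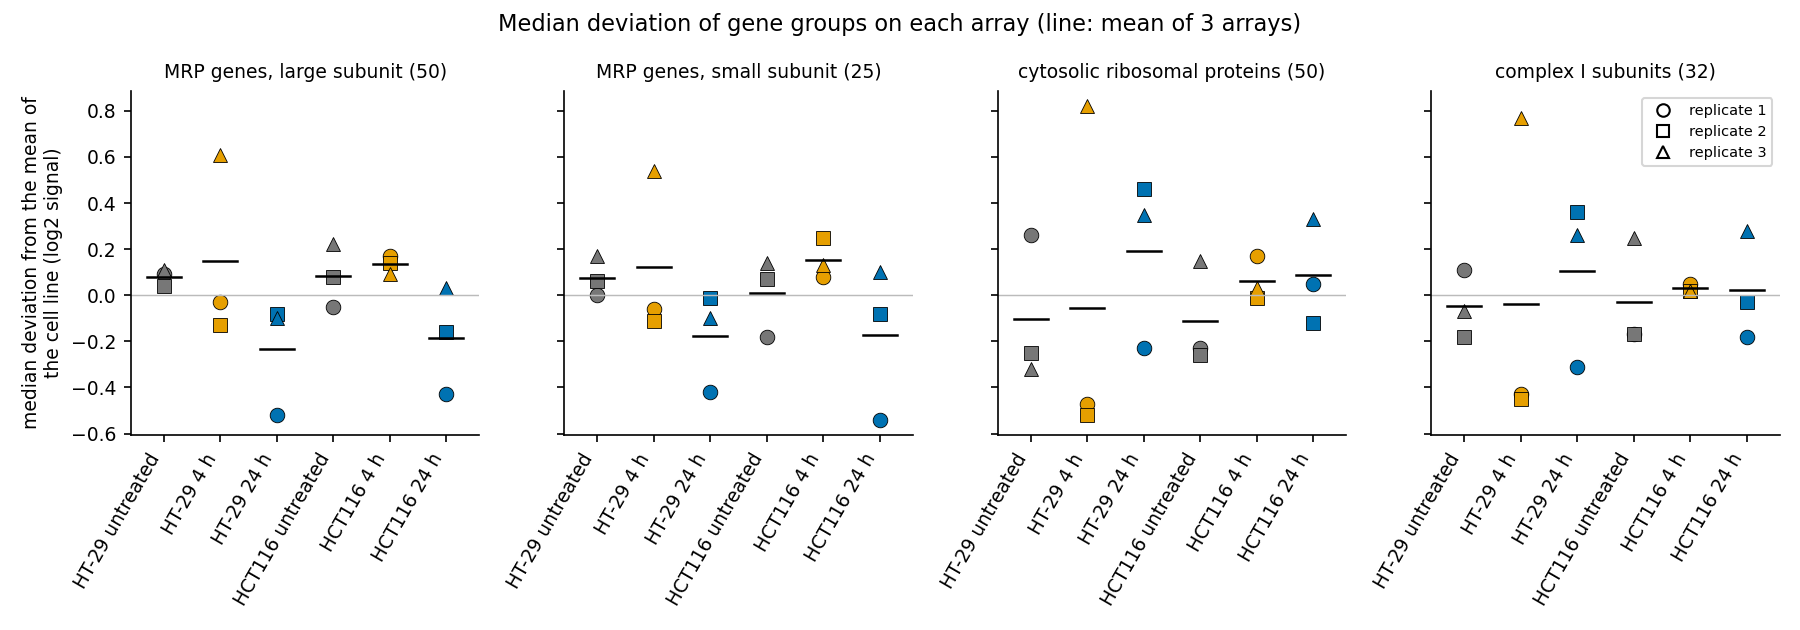
Median deviation of each gene group from the mean of its cell line (log2 signal, y axis) on each of the 18 arrays, by group (x axis); symbols give the replicate and lines the mean of 3 arrays. The 24 h arrays of HT-29 lie below its untreated arrays for both MRP subunits, whereas those of cytosolic ribosomal proteins and complex I do not, and HT-29 4 h replicate 3 is high in all 4 panels. For the small subunit the HT-29 groups almost touch, at -0.01 on 24 h replicate 2 and -0.00 on untreated replicate 1.

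After 24 h of ER, most MRP genes of HT-29 cells had lower signals than in untreated cells. The log2 change was below 0 for 68 of the 75 genes, as it was for 47.5% of all genes, and its median was -0.34, against 0.02 over all genes. It ran from -0.89 to 0.21, with a median SE of 0.31. A differentially expressed transcript (DET) was taken, as in the methods, as one that differed 1.2-fold or more with a p, before adjustment, no larger than 0.005, here from limma. By that rule 1 gene, MRPL3, fell, and 0.687% of all genes were DETs in either direction. Of the 75 genes, 5 were lower at an unadjusted p under 0.05 (2.09% of all genes were), and 15 had all 24 h arrays below all untreated arrays (5.41% of all genes did). With the methods' t-test 0 were DETs and 9 had an unadjusted p under 0.05. None passed Benjamini-Hochberg adjustment over all transcripts by either tool, the lowest adjusted p in limma being 1.

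MRPL3 is a core protein of the large subunit with a counterpart in bacteria. Its signals in HT-29 cells were 14.07, 14.40 and 14.21 untreated, 14.20, 14.30 and 14.45 at 4 h, and 13.51, 13.18 and 13.57 at 24 h. All 24 h arrays lay below all others, by a log2 change of -0.80 (SE 0.23, n = 3 against 3, limma adjusted p = 1) against untreated cells. The call was lost when any of the 6 arrays compared, or 4 h replicate 3, was left out, while the change stayed between -0.88 and -0.68. MRPL49 passed as a DET without untreated replicate 1, and MRPS7 without 24 h replicate 2.
MRPL49, a large subunit protein specific to mitochondria, had signals of 10.16, 10.34 and 10.84 untreated and of 9.34, 9.60 and 9.74 at 24 h, without overlap, and a log2 change of -0.89 (SE 0.26, limma adjusted p = 1), just outside the DET threshold. MRPS7, whose bacterial counterpart nucleates assembly of the head of the small subunit, had 12.44, 12.45 and 13.02 untreated and 11.52, 12.37 and 11.48 at 24 h. Here the groups were separated only by the small gap between 12.37 and 12.44. MRPL35 and MRPL9, large subunit proteins with bacterial counterparts, had log2 changes of -0.77 (SE 0.29) and -0.64 (SE 0.24), also without overlap. These 5 genes had the smallest p-values among those that were lower.

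The median moved with single arrays. Without HT-29 24 h replicate 1 it was -0.20, and 55 genes were below 0. With replicates 2 and 3 alone at all times, so without the arrays that stood apart on LYZ and KRT20, it was -0.15 with 51 genes below 0 and 0 DETs. The part of that replicate's markers in the result was not tested.

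**Figure D2:**
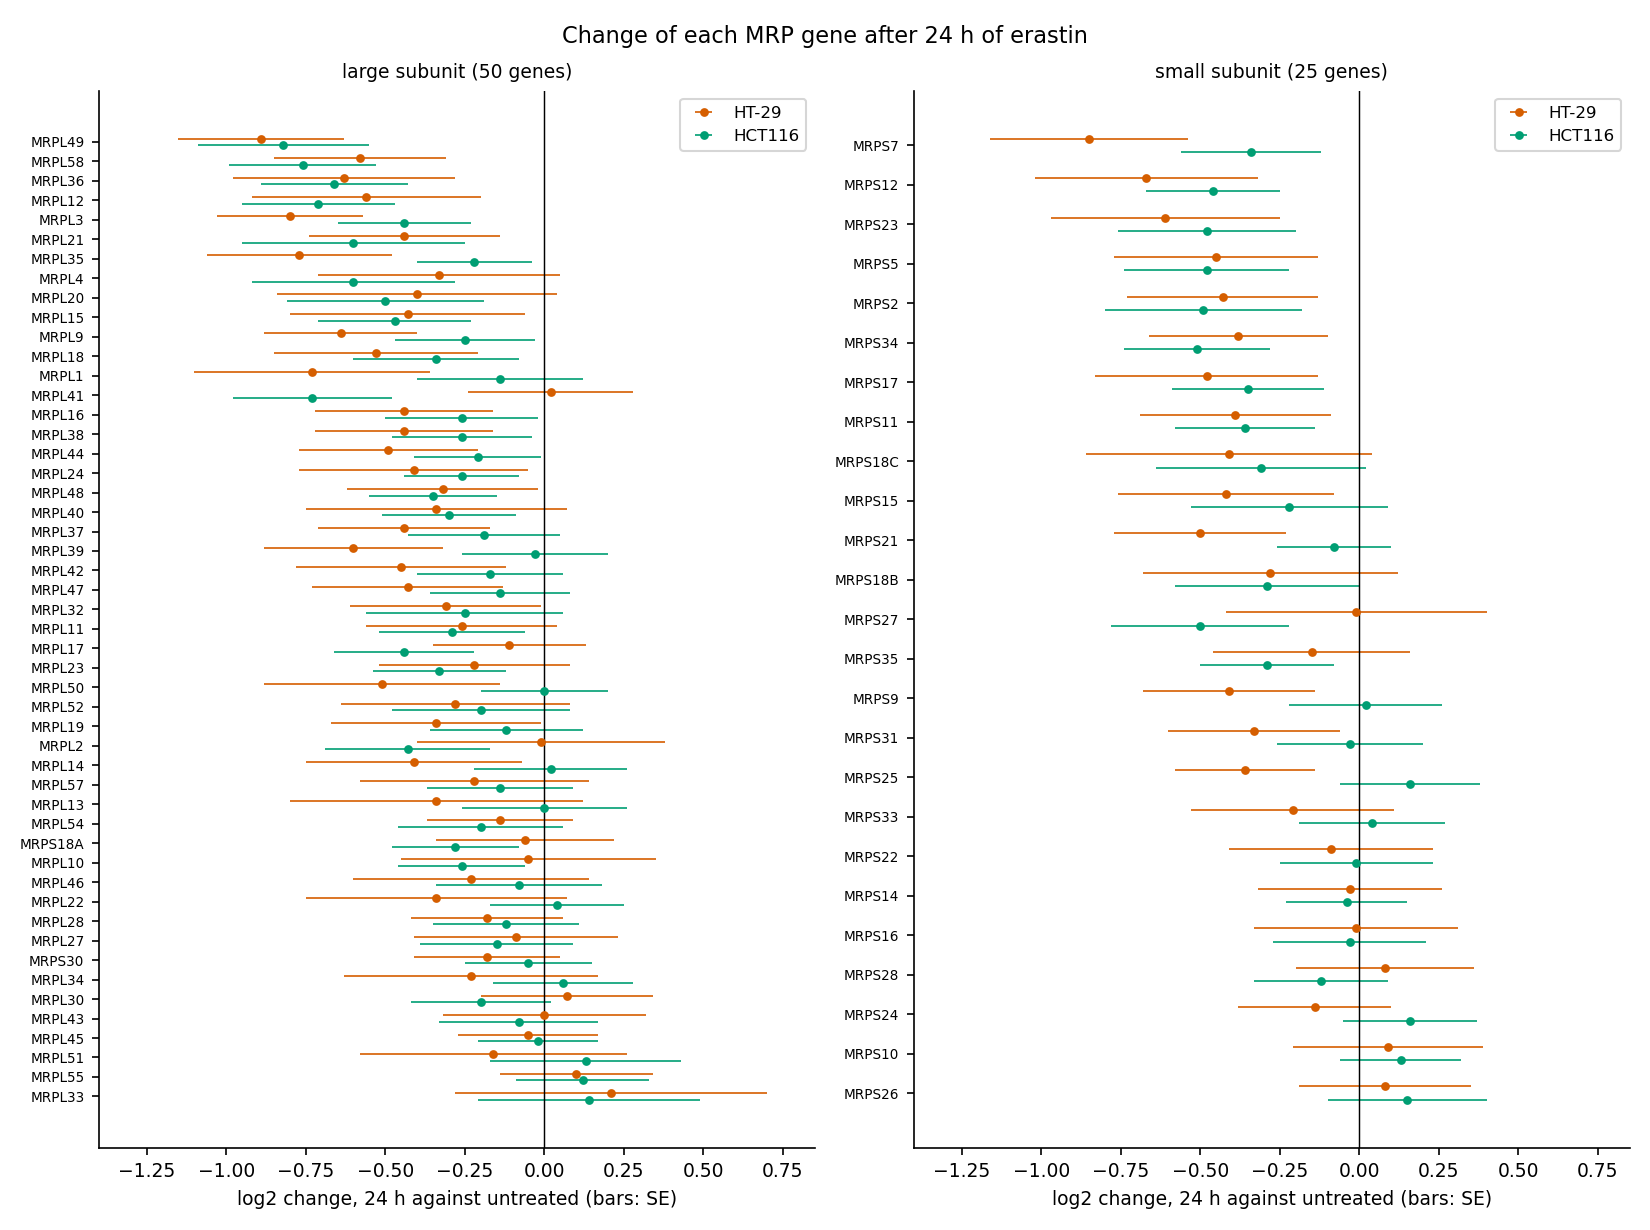
Log2 change of each of the 75 MRP genes at 24 h of ER against untreated cells (x axis; bars are SE from limma), large subunit on the left and small subunit on the right, genes ordered by the sum of the changes in both lines. Most points lie left of 0 in both lines, and MRPL49 has the lowest sum.

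In HCT116 cells most MRP genes were also lower at 24 h. The log2 change was below 0 for 61 of the 75 genes, against 49% of all genes, and its median was -0.22, against 0.01 over all genes (range -0.82 to 0.16, median SE 0.23). No gene was a DET in limma (2% of all genes were), 6 were lower at an unadjusted p under 0.05 (3.82% of all genes) and 10 had all 24 h arrays below all untreated arrays (6.54% of all genes). The methods' t-test gave 0 DETs and 4 genes with an unadjusted p under 0.05, in either direction. The lowest adjusted p was 0.423.
The 6 genes were MRPL58, MRPL12, MRPL49, MRPL41, MRPL36 and MRPS34, of which MRPS34 is a small subunit protein that keeps this subunit stable in mouse and human cells. MRPL58 is a large subunit protein that acts as a peptidyl-tRNA hydrolase and frees stalled mitochondrial ribosomes. Its signals in HCT116 cells were 8.21, 8.64 and 8.96 untreated, 8.33, 8.24 and 8.54 at 4 h, and 7.58, 7.96 and 8 at 24 h. The 24 h arrays lay below all others, by a log2 change of -0.76 (SE 0.23, limma adjusted p = 0.423).
MRPL12 forms the flexible stalk of the large subunit to which translation factors bind. It had 11.08, 11.19 and 11.39 untreated, 11.48, 11.54 and 11.41 at 4 h, and 10, 10.67 and 10.88 at 24 h, so all 4 h arrays were above and all 24 h arrays below the untreated ones. The log2 change at 24 h was -0.71 (SE 0.24, limma adjusted p = 0.456).
MRPL41, a large subunit protein specific to mitochondria, had 9.67, 9.70 and 10.19 untreated and 9.05, 8.94 and 9.38 at 24 h in HCT116 cells, a log2 change of -0.73 (SE 0.25). In HT-29 cells it had 9.30, 9.29 and 8.80 untreated and 8.94, 9.34 and 9.16 at 24 h, overlapping groups with a log2 change of 0.02 (SE 0.26). MRPL49 had a log2 change of -0.82 (SE 0.27) in HCT116 cells, but its 24 h arrays were far apart at 9.17, 10.08 and 10.23.
As in HT-29 cells, 24 h replicate 1 weighed most: without it the median over the 75 genes was -0.09 and 47 genes were below 0. Without untreated replicate 3 the median was -0.14. Without 24 h replicate 3 there were 3 DETs and without untreated replicate 1 there was 1, against 0 with all arrays.

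**Figure D3:**
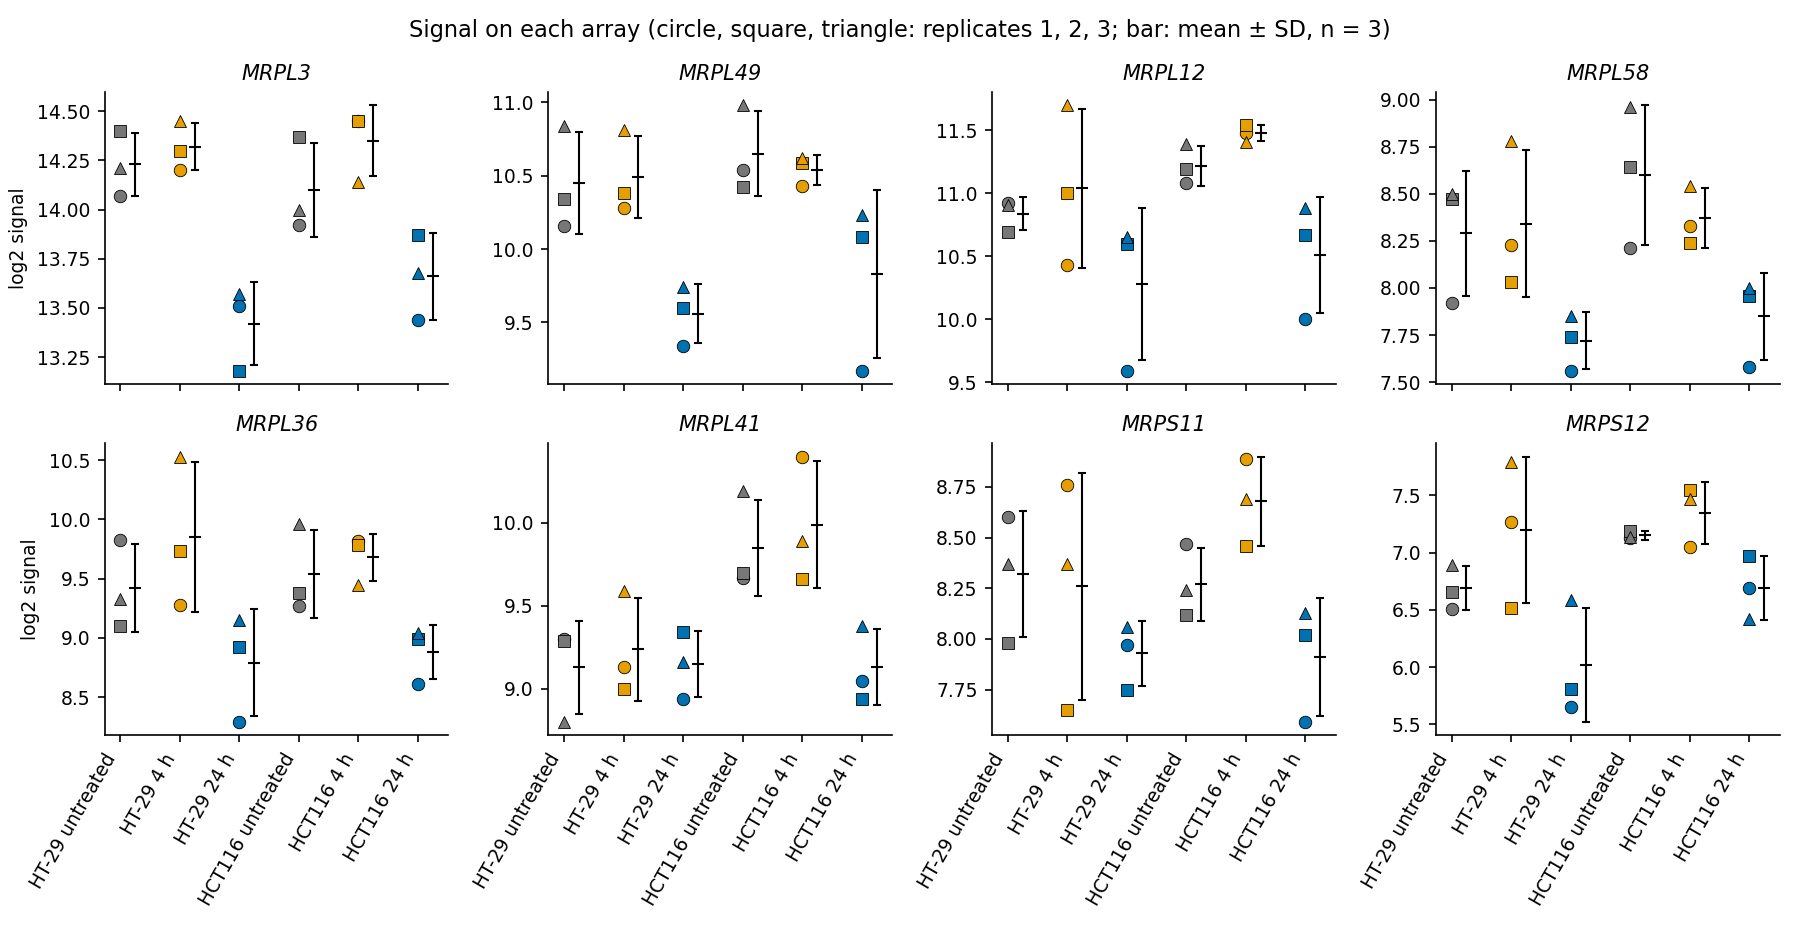
Signal (log2, y axis) of 8 MRP genes on each of the 18 arrays, by group (x axis); bars are mean ± SD of 3 arrays, and each panel has its own scale, which does not start at 0. The 24 h arrays lie below all untreated and 4 h arrays of the line for MRPL3, MRPL49 and MRPL58 in both lines, whereas MRPL41 does so only in HCT116.

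The third comparison set 24 h against 4 h of ER. It shares the 24 h arrays with the comparison against untreated cells and is not independent of it. In HCT116 cells 67 of the 75 genes were lower at 24 h than at 4 h (51.3% of all genes), with a median log2 change of -0.35 against -0.01 over all genes. The DETs were 4, MRPL12, MRPL36, MRPL41 and MRPS11, all of which fell (3.61% of all genes were DETs in either direction). Those lower at an unadjusted p under 0.05 numbered 19 (6.48% of all genes), and 23 had no overlap between the groups (10.1% of all genes). The methods' t-test gave 1 DET and 14 genes at an unadjusted p under 0.05, in either direction. None passed adjustment, the lowest adjusted p being 0.164, for MRPL12.
MRPL12 had a log2 change of -0.96 (SE 0.24, limma adjusted p = 0.164). MRPL36 is a small protein with a bacterial counterpart, and its signals were 9.82, 9.78 and 9.45 at 4 h and 8.61, 8.99 and 9.04 at 24 h, a log2 change of -0.80 (SE 0.23, limma adjusted p = 0.241). MRPS11, a protein of the platform of the small subunit, had 8.89, 8.46 and 8.69 at 4 h and 7.59, 8.02 and 8.13 at 24 h, a log2 change of -0.77 (SE 0.22, limma adjusted p = 0.227). MRPL41 had 10.40, 9.66 and 9.89 at 4 h, and its log2 change was -0.86 (SE 0.25, limma adjusted p = 0.229).
In all 4 genes the groups did not overlap, and each call was lost without 1 or another array, those of 4 h replicate 1 and 24 h replicate 1 among them. Without 24 h replicate 1 there were 0 DETs, the median over the 75 genes was -0.14 and 55 were lower. The number of DETs was 1 without untreated replicate 2 or without 4 h replicate 1, 2 without replicate 1 of the untreated arrays, without either of replicates 2 and 3 at 4 h or without replicate 2 at 24 h, and 6 without 24 h replicate 3.

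In HT-29 cells 67 of the 75 genes were lower at 24 h than at 4 h (51.4% of all genes), with a median log2 change of -0.40 against -0.01 over all genes. MRPL3 and MRPL49 fell as DETs (1.68% of all genes were DETs in either direction), 9 genes were lower at an unadjusted p under 0.05 (3.72% of all genes) and 11 had no overlap between the groups (6.1% of all genes). The methods' t-test gave 1 DET and 4 genes at an unadjusted p under 0.05, in either direction. Adjustment was passed by 0 genes with either tool (lowest adjusted p in limma 0.429).
The log2 change was -0.89 (SE 0.23, limma adjusted p = 0.429) for MRPL3 and -0.93 (SE 0.26, limma adjusted p = 0.525) for MRPL49. MRPS12, whose bacterial counterpart lies at the decoding site, had the largest difference of the 75 genes in this comparison, -1.18 (SE 0.35), yet its arrays overlapped, with 7.27, 6.52 and 7.79 at 4 h and 5.65, 5.81 and 6.59 at 24 h. These are low signals, as the median over all transcripts was 5.44 to 5.61 on the arrays. MRPL36 followed with -1.06 (SE 0.35), and its signals of 9.28, 9.73 and 10.53 at 4 h and 8.29, 8.92 and 9.15 at 24 h did not overlap.
The 4 h arrays of HT-29 cells spread widely, and without replicate 3 of that group there were 0 DETs, a median of -0.16, nearer to 0 than the -0.34 against untreated cells, and 52 genes lower. Without 24 h replicate 1 the median was -0.25 and 1 gene was a DET, without untreated replicate 2 there was 1 DET, without 24 h replicate 2 there were 0 and without 4 h replicate 1 there were 3. With replicates 2 and 3 alone the median was -0.29, with 64 genes lower and 0 DETs.

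At 4 h itself no MRP gene was a DET. In HT-29 cells limma and the methods' t-test each gave 0 DETs and 0 genes with an unadjusted p under 0.05, where 0.161% and 2.8% of all genes passed these thresholds in limma. The change was below 0 for 24 of the 75 genes (47.2% of all genes), with a median of 0.07 against 0.02 over all genes. Its sign rested on replicate 3 of the 4 h group, without which the median was -0.13 and 58 genes were below 0. It was 0.04 without untreated replicate 1, 0.12 without untreated replicate 3 and 0.18 without 4 h replicate 1 or 2, and 0.16 with 24 genes below 0 with replicates 2 and 3 alone. The changes ran from -0.66 (SE 0.33) for MRPL19 to 0.62 (SE 0.49) for MRPL33, both large subunit proteins with bacterial counterparts. MRPL33 had 8.35, 8.66 and 10.49 at 4 h, against 8.69, 8.81 and 8.14 untreated, so that difference came from replicate 3.
In HCT116 cells the change was below 0 for 23 genes (46.4% of all genes), with a median of 0.10 against 0.02 over all genes. Limma and the methods' t-test each gave 0 DETs (0.211% of all genes in limma) and 1 gene with an unadjusted p under 0.05 (3.13% of all genes in limma). In limma this was MRPL39, a large subunit protein specific to mitochondria, with 9.01, 9.04 and 8.57 untreated and 9.52, 9.31 and 9.32 at 4 h. Its groups did not overlap, and the log2 change was 0.51 (SE 0.23, limma adjusted p = 1). At 24 h MRPL39 overlapped the untreated arrays in HCT116 cells, with 8.42, 9.10 and 9.02. The HCT116 median was 0.03 without untreated replicate 1 and 0.18 without untreated replicate 3.

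By role, the large and the small subunit had like medians. At 24 h against untreated cells the median was -0.34 for the 50 large subunit genes (46 below 0) and -0.36 for the 25 small subunit genes (22 below 0) in HT-29 cells, and -0.21 (42 below 0) and -0.22 (19 below 0) in HCT116 cells. Genes with a bacterial counterpart had medians of -0.40 in HT-29 and -0.25 in HCT116 cells, and those specific to mitochondria -0.28 and -0.19. With HT-29 replicates 2 and 3 alone the HT-29 median was -0.15 in each of these 4 classes. The 1 DET in HT-29 cells and 4 of the 5 genes at an unadjusted p under 0.05 belonged to the large subunit, as did 5 of the 6 in HCT116 cells. The large subunit holds 50 of the 75 genes, and whether these counts differ from that share was not tested.
Genes with pseudogene transcripts on the same arrays, whose signals could be shared with those copies, numbered 31, with MRPL3, MRPL49 and MRPS11 among them. Their medians at 24 h were -0.34 in HT-29 and -0.25 in HCT116 cells, and those of the other 44 genes -0.33 and -0.20. MRPS18A and MRPS30 differed little at 24 h, with log2 changes of -0.06 (SE 0.28) and -0.18 (SE 0.23) in HT-29 cells and of -0.28 (SE 0.20) and -0.05 (SE 0.20) in HCT116 cells.

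Some genes ran against the others. At 24 h 7 genes were above 0 in HT-29 and 14 in HCT116 cells, and 4 genes were higher in both lines: MRPL33, MRPL55, MRPS10 and MRPS26. MRPL33 had log2 changes of 0.21 (SE 0.49) in HT-29 and 0.14 (SE 0.35) in HCT116 cells, MRPL55 of 0.10 (SE 0.24) and 0.12 (SE 0.21), MRPS10 of 0.09 (SE 0.30) and 0.13 (SE 0.19), and MRPS26 of 0.08 (SE 0.27) and 0.15 (SE 0.25). Each change was smaller than its SE, and in both lines the arrays overlapped. MRPS10, the counterpart of a protein in the head of the bacterial small subunit, had 11.48, 11.78 and 12.03 untreated and 11.31, 12.23 and 12.02 at 24 h in HT-29 cells, and 11.91, 12.18 and 12.15 against 12.14, 12.06 and 12.41 in HCT116 cells.

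The lines share no array, so their changes can be set beside each other, although 24 h replicate 1 was the lowest array in both. HT-29 replicates 2 and 3 also lay near HCT116 on some epithelial markers, such as VIL1 and CDH1. How distinct the lines are on these arrays was not tested. At 24 h 58 of the 75 genes (77.3%) had changes below 0 in both lines, against 27.8% of all genes, 10 only in HT-29 and 3 (MRPL30, MRPL41 and MRPS28) only in HCT116. As 68 genes were below 0 in HT-29 and 61 in HCT116 cells, a large overlap follows from these counts alone. It therefore does not show that the lines agree gene by gene. Across the 75 genes the changes in the lines had a correlation of 0.43, which describes genes measured on the same kind of array and not independent replicates. MRPL49, MRPL58, MRPL36, MRPL12 and MRPL3 lay lowest in the sum of both lines. For 24 h against 4 h, 61 genes were lower in both lines, where 67 were lower in each line alone. With HT-29 replicates 2 and 3 alone, 44 genes (58.7%) were lower in both lines against untreated cells, with a correlation of 0.26, and 59 against 4 h. That alternative kept HCT116 24 h replicate 1. Without that array 47 genes were below 0 in HCT116 cells against untreated cells and 55 against 4 h. No count over both lines was made without it.
The difference between the lines was tested as an interaction in limma over all 18 arrays. At 4 h and at 24 h 0 genes passed as DETs (0.131% and 0.164% of all genes did), with 1 gene at an unadjusted p under 0.05 each time, and 0 did under any alternative that could be run. At 24 h this gene was MRPL41, lower in HCT116 cells by a difference in log2 change of -0.75 (SE 0.35, limma adjusted p = 1). At 4 h it was MRPL47, a large subunit protein with a bacterial counterpart at the end of the exit tunnel, whose log2 change was 0.41 (SE 0.22) in HCT116 and -0.39 (SE 0.30) in HT-29 cells, a difference of 0.81 (SE 0.37, limma adjusted p = 1). The median SE of the difference over the 75 genes was 0.40, larger than the median change in either line, so a difference of that size was not detectable here.

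**Figure D4:**
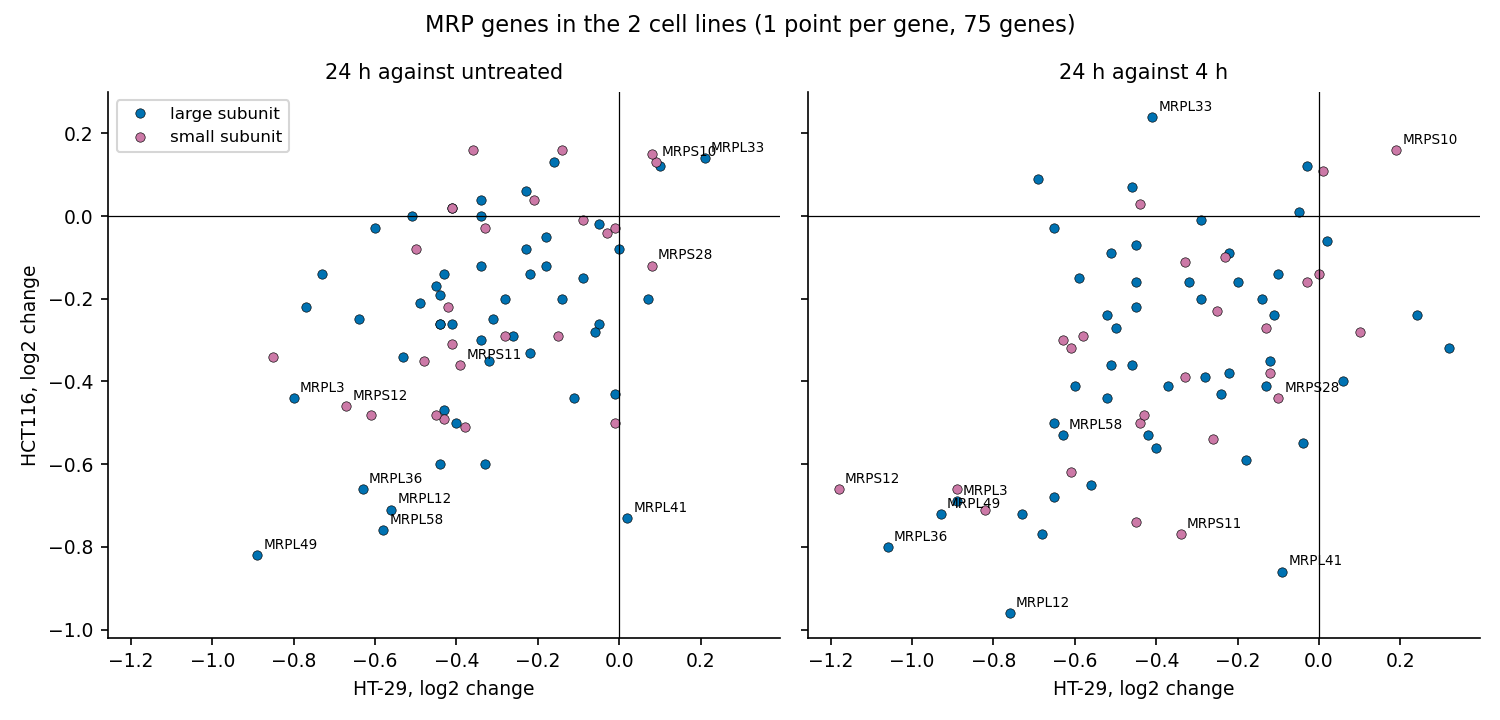
Log2 change of each of the 75 MRP genes in HT-29 (x axis) and HCT116 cells (y axis), at 24 h against untreated cells (left) and against 4 h (right), coloured by subunit. Most points lie in the lower left of each panel, and MRPL41 lies low in HCT116 only.

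The rest of the mitochondrial translation apparatus was described from lists of other genes. Of 4 measured mitochondrial ribosomal proteins with other symbols, among them DAP3, a GTP-binding protein of the small subunit, 0 were DETs in any comparison in limma and 0 had an unadjusted p under 0.05. At 24 h against untreated cells the 4 genes had medians of -0.18 in HT-29 and -0.13 in HCT116 cells, with 3 below 0 in each line. Against 4 h the medians were 0.06 and 0.01, with 3 above 0 in each line. DAP3 had log2 changes of -0.28 (SE 0.22) in HT-29 and -0.12 (SE 0.19) in HCT116 cells at 24 h against untreated cells. The 25 measured assembly factors had medians of -0.19 in HT-29 and -0.05 in HCT116 cells at 24 h, and 1 of them, MRM2, was a DET. MRM2 methylates the large ribosomal RNA of the mitochondrion, and its signals in HT-29 cells were 10.32, 10.29 and 10.32 untreated, 10.68, 10.30 and 10.98 at 4 h, and 9.40, 9.30 and 9.54 at 24 h. The 24 h arrays lay far below all others, by a log2 change of -0.90 (SE 0.24, limma adjusted p = 1) against untreated cells, and from 4 h to 24 h it fell as a DET in both lines, with log2 changes of -1.24 (SE 0.24) in HT-29 and -0.97 (SE 0.24) in HCT116 cells. In HCT116 cells its change against untreated cells was -0.77 (SE 0.24, limma adjusted p = 0.428), outside the threshold.
Other assembly factors with an unadjusted p under 0.05 in the same direction in both lines at 24 h numbered 1, RCC1L, which takes part in building the large subunit, with -0.56 (SE 0.24) in HT-29 and -0.61 (SE 0.25) in HCT116 cells. The 12 measured translation factors had medians of -0.28 in HT-29 and 0.03 in HCT116 cells at 24 h, and here the members ran both ways. MTIF3, which starts translation in mitochondria, rose as a DET in HCT116 cells, with 7.44, 7.16 and 6.79 untreated and 8.29, 8.15 and 7.81 at 24 h, a log2 change of 0.95 (SE 0.22, limma adjusted p = 0.293). TACO1, an activator of the translation of a cytochrome c oxidase subunit, had -0.88 (SE 0.27, limma adjusted p = 0.428) in HCT116 and -0.67 (SE 0.35) in HT-29 cells. The 7 genes for mitochondrial transcription and mRNA handling had medians at 24 h of -0.53 in HT-29 cells, with 7 below 0, and of 0.02 in HCT116 cells, with 3 below 0. Among them TFB2M, a mitochondrial transcription factor, fell as a DET in HT-29 cells from 4 h to 24 h, with a log2 change of -0.77 (SE 0.22). With HT-29 replicates 2 and 3 alone, the HT-29 medians at 24 h against untreated cells were -0.13 for assembly factors, -0.30 for translation factors and -0.75 for the 7 genes of transcription and mRNA handling. The mitochondrial genome's own transcripts were not analysed here.

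Of 10 regulators of nuclear genes for mitochondria, 9 were measured. PPRC1, a coactivator related to PGC-1, had 12.21, 12.16 and 11.98 untreated, 11.99, 12.99 and 13.36 at 4 h and 10.18, 11.59 and 11.36 at 24 h in HT-29 cells. The 24 h arrays were the lowest, and from 4 h to 24 h PPRC1 fell as a DET with a log2 change of -1.74 (SE 0.40, limma adjusted p = 0.361), while against untreated cells its log2 change was -1.07 (SE 0.40). In HCT116 cells the changes were -1.21 (SE 0.38, limma adjusted p = 0.271) and -0.92 (SE 0.38), with 24 h arrays at 10.49, 11.85 and 12.19, the lowest being replicate 1.
MYC, a transcription factor that binds E-boxes, had 13.57, 14.91 and 15.18 untreated, 15.54, 15.72 and 15.53 at 4 h and 13.77, 14.25 and 14.74 at 24 h in HCT116 cells. It was highest at 4 h and fell as a DET from 4 h to 24 h, with a log2 change of -1.35 (SE 0.37, limma adjusted p = 0.217). In HT-29 cells that change was -1.26 (SE 0.39, limma adjusted p = 0.619). NRF1 had log2 changes of -0.56 (SE 0.21) in HCT116 and -0.68 (SE 0.29) in HT-29 cells from 4 h to 24 h, and GABPB1, a subunit of the ETS factor GABP, of -0.49 (SE 0.22) and -0.84 (SE 0.33), all with an unadjusted p under 0.05. Its partner GABPA, which binds the DNA, had -0.01 (SE 0.35) and 0.19 (SE 0.50). For MYC the mean signals untreated and at 24 h were 14.48 and 14.44 in HT-29 cells and 14.55 and 14.25 in HCT116 cells. Those of NRF1 were 11.08 and 10.79 in HT-29 cells and 11.26 and 10.88 in HCT116 cells. Those of GABPB1 were 11.03 and 10.69 in HT-29 cells and 10.77 and 10.76 in HCT116 cells. Those of GABPA were 9.98 and 9.80 in HT-29 cells and 9.80 and 10.17 in HCT116 cells. For ESRRA, GABPB2, PPARGC1A and PPARGC1B the changes at 24 h against untreated cells ran between -0.39 and 0.15, and 0 of them were DETs. From 4 h to 24 h PPARGC1B was lower in HCT116 cells without overlap, with 7.48, 7.49 and 7.58 and then 6.54, 7.21 and 7.12. GABPB2 was higher in HT-29 cells, with means of 10.58 at 4 h and 11.21 at 24 h, and its arrays overlapped. None of these 9 genes passed adjustment in any comparison. Whether the regulators bear on the MRP genes was not tested.

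Cytosolic ribosomal protein and complex I genes, which share with MRP genes the ribosome and the mitochondrion, did not lie below 0 at 24 h. The 50 cytosolic ribosomal protein genes had medians of 0.24 in HT-29 and 0.15 in HCT116 cells, with 6 genes below 0 in each line, and the 32 complex I genes had 0.17 and 0.06, with 10 and 11 genes below 0. With HT-29 replicates 2 and 3 alone the HT-29 medians were 0.69 and 0.42. In limma 0 genes of either list were DETs in any comparison, and at 24 h against untreated cells 0 in HT-29 and 4 in HCT116 cells, all higher, had an unadjusted p under 0.05. These lists and the MRP genes were measured on the same arrays, so what sets an array high or low for 1 of them can reach the others.

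**Figure D5:**
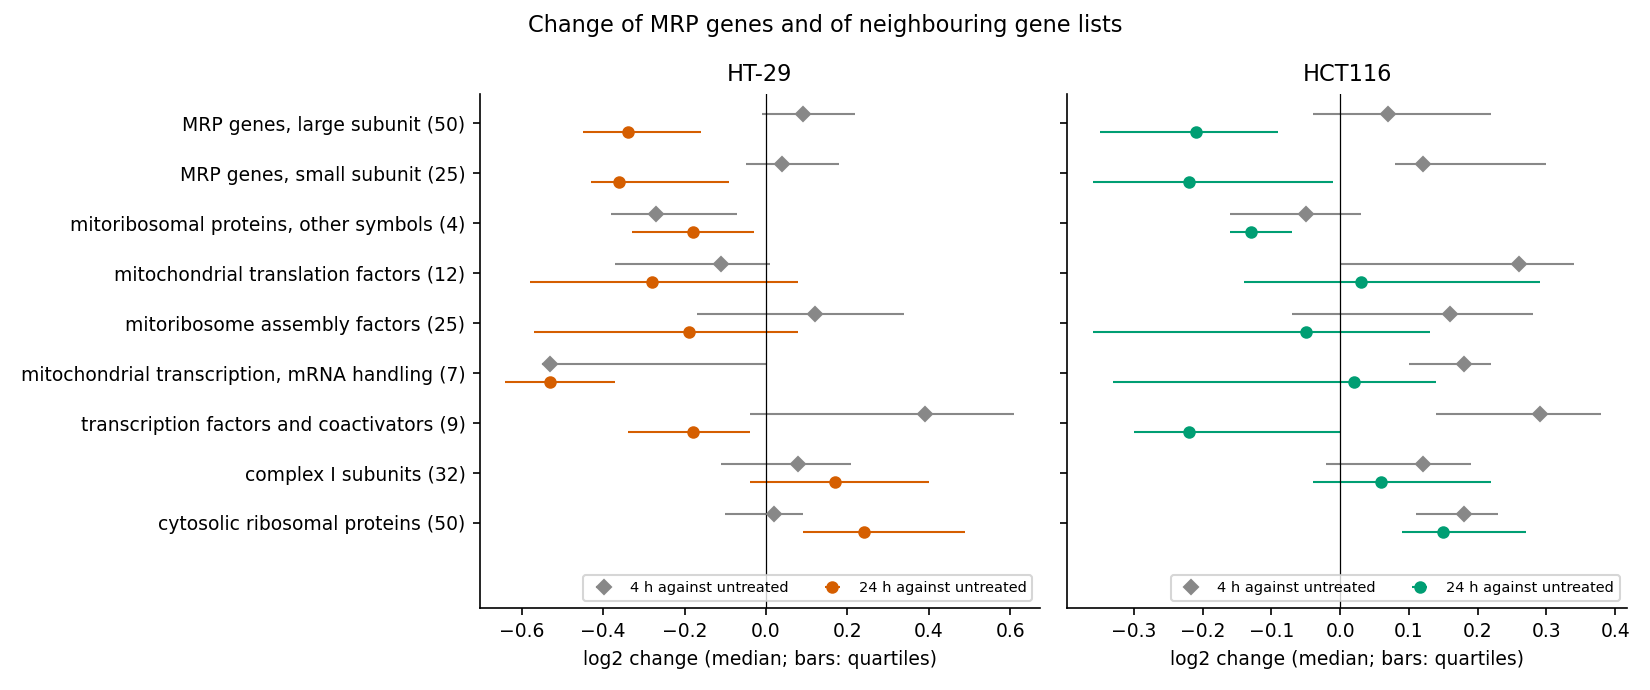
Median log2 change (points) and quartiles (bars) of MRP genes and of neighbouring gene lists against untreated cells in HT-29 (left) and HCT116 cells (right), at 4 h and 24 h; numbers of genes are in brackets, and the x axes differ. At 24 h both MRP subunits lie at -0.34 and -0.36 in HT-29 and at -0.21 and -0.22 in HCT116, and cytosolic ribosomal proteins lie above 0.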

How the data were processed

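The authors deposited a table of log2 signals, already normalized, with a row for each transcript. Per their methods, the lines were normalized separately by RMA in the oligo package, summarized by the mean and log2 transformed. The software of the maker of the arrays is also named, and whether it or oligo gave the deposited values is not given in the sources used here. Of 138745 features, 2995 control features were left out. Genes come from the 36176 transcripts annotated to a single gene, and where a gene has several (1 of the 75, MRPL23) the one with the highest mean over 18 arrays was used. Background shares are over 33616 genes.

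The 9 arrays of a line were fitted over 135750 transcripts by lmFit and eBayes of limma 3.58.1 under R 4.3.3. The contrasts were 4 h and 24 h against untreated cells and 24 h against 4 h, and the difference between lines was the interaction over 18 arrays. The methods name a t-test and p-values from permutation; only the former was run, as the methods' t-test, with p-values from its t distribution. Each p is two-sided, adjusted p-values are Benjamini-Hochberg over all transcripts, and medians over a list carry no test. The number of arrays limits the precision: the median SE over all transcripts was 0.29 in HT-29 and 0.24 in HCT116 cells. The fit was tested on simulated data.

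The members and all lists were chosen with earlier results of these data known. Genes named are DETs in any comparison, the 5 largest rises and 5 largest falls by moderated t against untreated cells, up to 3 genes of each neighbouring list with the smallest p, and genes named for their role (MRPL12, MRPL58, MRPS18A, MRPS30, MRPS36, DAP3 and the regulators). Others are named where a count or a comparison turns on them and were chosen after their values were seen. MRPS36 is annotated as KGD4. The methods' t-test, other choices of arrays, filters, normalizations and limma settings, a replicate block and the omission of each array were run as alternatives. Tables were made with data.table (version 1.17.8), pandas 2.3.3 and numpy 2.4.6 under Python 3.11.15, and figures with matplotlib 3.10.9.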

Additional observations from a re-analysis of the deposited data

How the results depend on the processing

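The medians over the 75 genes kept their direction under all alternatives with all arrays of a line, and 0 genes passed adjustment under any. Of 300 alternatives for counts and medians 259 left the value unchanged and 41 moved it, and the cause was not tested. In HT-29 cells at 24 h against untreated cells the 1 DET became 0 with the methods' t-test, with only the arrays compared and with replicates 2 and 3 alone, 2 with means over the transcripts of a gene, median centring or array weights, and 3 in 1 fit of all 18 arrays. The median there, -0.34, was -0.15 with replicates 2 and 3 alone. From 4 h to 24 h the 2 DETs of HT-29 cells became 1 with the methods' t-test, with only the arrays compared, with transcripts above the median signal and with a trended and robust fit, 4 in 1 fit of all arrays and 0 with replicates 2 and 3 alone. The 0 DETs of HCT116 cells at 24 h against untreated cells became 1 with single-gene transcripts and with means over transcripts, and the 4 DETs from 4 h to 24 h became 1 with the methods' t-test and 2 with only the arrays compared, in 1 fit of all arrays or with array weights.

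Same-numbered arrays did not all deviate together (correlations of deviations -0.148 to 0.500 in HT-29 and -0.071 to 0.245 in HCT116), so the numbers were not taken as pairs, although the correlations were 0.105 to 0.500 for HT-29 replicate 1 and 0.168 to 0.207 for HCT116 replicate 1. The replicate block gave 1 DET in HCT116 cells at 24 h against untreated cells and 2 from 4 h to 24 h, and 3 in HT-29 cells from 4 h to 24 h. Leaving out each array in turn, DETs numbered 0 to 1 (24 h against untreated cells) and 0 to 3 (against 4 h) in HT-29 cells and 0 to 3 and 0 to 6 in HCT116 cells, and the medians ran from -0.39 to -0.20, from -0.56 to -0.16, from -0.32 to -0.09 and from -0.44 to -0.14. Of 942 alternatives for single genes 851 kept direction and call, 62 lost and 14 gained the call, and 15 changed sign, all by leaving out 1 array and all against untreated cells. Over these the changes against untreated cells ran, in HT-29 cells at 4 h, from -0.04 to 1.03 for MRPL33, and in HT-29 cells at 24 h, from -0.03 to 0.51 for MRPL33, from -0.06 to 0.23 for MRPL55, from -0.10 to 0.36 for MRPS10, from -0.13 to 0.25 for MRPS26, from -0.15 to 0.25 for MRPS28, and in HCT116 cells at 4 h, from -0.34 to 0.02 for MRPL38, and in HCT116 cells at 24 h, from -0.00 to 0.18 for MRPL55, from -0.01 to 0.30 for MRPS24, from -0.02 to 0.35 for MRPS25, from -0.12 to 0.32 for MRPS26. With 3 arrays per group the median SE over all transcripts, 0.29 in HT-29 and 0.24 in HCT116 cells, is close to the size of the median changes.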

Other observations

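KGD4, the gene once named MRPS36, encodes a subunit of the 2-oxoglutarate dehydrogenase complex and not of the ribosome. Its log2 changes at 24 h against untreated cells were -0.07 in HT-29 and 0.01 in HCT116 cells. The transcript shared by SLC5A3 and MRPS6 had 0.05 and -0.04, and the one shared by CCDC142 and MRPL53 had 0.16 and 0.39. From 4 h to 24 h the latter had 0.59 in HCT116 cells, a direction opposite to that of most MRP genes. It was not a DET, and its signal cannot be assigned to either gene.

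The arrays also hold 74 transcripts of MRP pseudogenes. At 24 h against untreated cells 36 of them were below 0 in HT-29 cells, with a median log2 change of 0.01, and 47 in HCT116 cells, with a median of -0.12. In limma 0 of the 74 were DETs in any of the 8 comparisons.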
